A study of Mus musculus with 480 samples.

Results

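Bronchioalveolar stem cells (BASCs) of the BASCs-Tracer line were set against alveolar type 2 (AT2) cells of the Sftpc-TD line, both sorted from digested mouse lung as single epithelial cells. The cells were chosen by the reporter line and the sub-type that the labels give, which left 85 BASCs on plate 1 and 53 on plate 2, and 60 AT2 cells on plate 4 and 89 on plate 5, together 287 of 480 cells. BASCs-Tracer mice carry Sftpc-DreER and, in the spelling of the labels, Scgba1a1-CreER together with R26-RSR-LSL-tdtomato, so the red reporter appears only where a Dre recombinase under Sftpc and a Cre recombinase under Scgb1a1 have both acted. Sftpc-TD mice carry Sftpc-DreER;R26-RSR-tdtomato, so Dre alone switches the reporter on. Both lines therefore share the Sftpc-driven, ligand-dependent Dre and a reporter at Rosa26, and the label marks past as well as present driver activity. The labels used here name no animal, age or dosing, so each line counted as 1 sample, and cells were not treated as replicates. No test between the groups was possible. Differences are given as levels with counting intervals, as ranges over cells and over the 4 pairings of a BASC plate with an AT2 plate, and as shares of cells.

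BASCs sit where the terminal bronchiole opens into the alveoli and carry products of both airway club cells and AT2 cells. Club cells secrete the secretoglobin encoded by Scgb1a1 and oxidise foreign compounds through cytochromes such as Cyp2f2. AT2 cells make surfactant, which keeps alveoli open, and in mice they also serve as progenitors of the flat alveolar type 1 (AT1) cells.

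BASCs of BASCs-Tracer held a median of 775502 gene-assigned reads per cell (range 21951 to 3233511) and 4993 detected genes, and AT2 cells of Sftpc-TD a median of 1114309 reads (3379 to 3781974) and 4645 genes. No plate held both groups, so the effect of cell type cannot be told apart from that of line and plate. Other small sets of cells bear on this: 11 BASCs of Sftpc-TD on plates 4 and 5, 6 AT2 cells of BASCs-Tracer on plates 1 and 2, and 10 BASCs of a further line, Scgb1a1-TD, on plate 4. Their levels are given beside the main ones. Reads were amplified by PCR without molecular identifiers, so every interval below covers counting error only.

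Reads were summed over the cells of each group and scaled to the gene-assigned total as CPM (counts per 1000000 gene-assigned reads). A log2 ratio sets one group over the other after 1 CPM is added to both. Among 10172 genes with 5 CPM or more in either group, X- and Y-linked genes left out, 1015 were at least 2-fold higher in BASCs (9.98%) and 928 at least 2-fold lower (9.12%). These shares are the background for the counts of list members below. The median log2 ratio over all 10172 genes was 0.01. In all 4 plate pairings, 221 of the genes called higher and 262 of those called lower kept a 2-fold difference. Plates of the same group differed as well: between the BASC plates 35.2% of the genes were 2-fold apart, and between the AT2 plates 21.1%.

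Most of these differences rested on few cells. In 980 of the 1015 genes called higher, 10 cells supplied at least 50% of all BASC reads, a share of 96.6%, against 80.6% of all genes measured. Only 19 of the 1015 genes had the higher CPM in the BASC in at least 75% of all possible pairs of 1 BASC and 1 AT2 cell, and 6 of the 928 genes called lower had it in the AT2 cell in at least 75% of pairs. The genes below were named by fixed rules of size, list membership and pair share.

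The club cell genes Scgb1a1 and Cyp2f2 were higher in BASCs across nearly the whole range of cells. Scgb1a1 stood at 13416 CPM in BASCs (95% Poisson interval 13394 to 13438) and 1285 CPM in AT2 cells (1280 to 1290), a log2 ratio of 3.38 that ran from 2.85 to 4.08 over the plate pairings. Single BASCs ranged from 323 to 153509 CPM with a median of 5394, and single AT2 cells from 0 to 50094 CPM with a median of 240. The groups overlapped, yet the BASC was higher in 92.5% of cell pairs. Scgb1a1 drives the Cre of the tracer line, so its level is tied to how the BASCs were labelled.

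Cyp2f2 encodes a lung cytochrome P450 typical of club cells. It stood at 1273 CPM in BASCs and 69.3 CPM in AT2 cells (log2 ratio 4.18, plate pairings 3.76 to 4.60), and the BASC was higher in 93.1% of pairs. The median BASC had 686 CPM on plate 1 and 377 on plate 2, against 23.5 CPM for AT2 cells on plate 4 and 5.53 on plate 5. The small sets did not all follow cell type. The median for Cyp2f2 was 20.3 CPM in the BASCs of Sftpc-TD, close to the AT2 cells of their own line, and 213 CPM in the tracer AT2 cells. On plate 4, it was 641 CPM in the BASCs of Scgb1a1-TD, well above the AT2 cells of that plate.

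**Figure D1:**
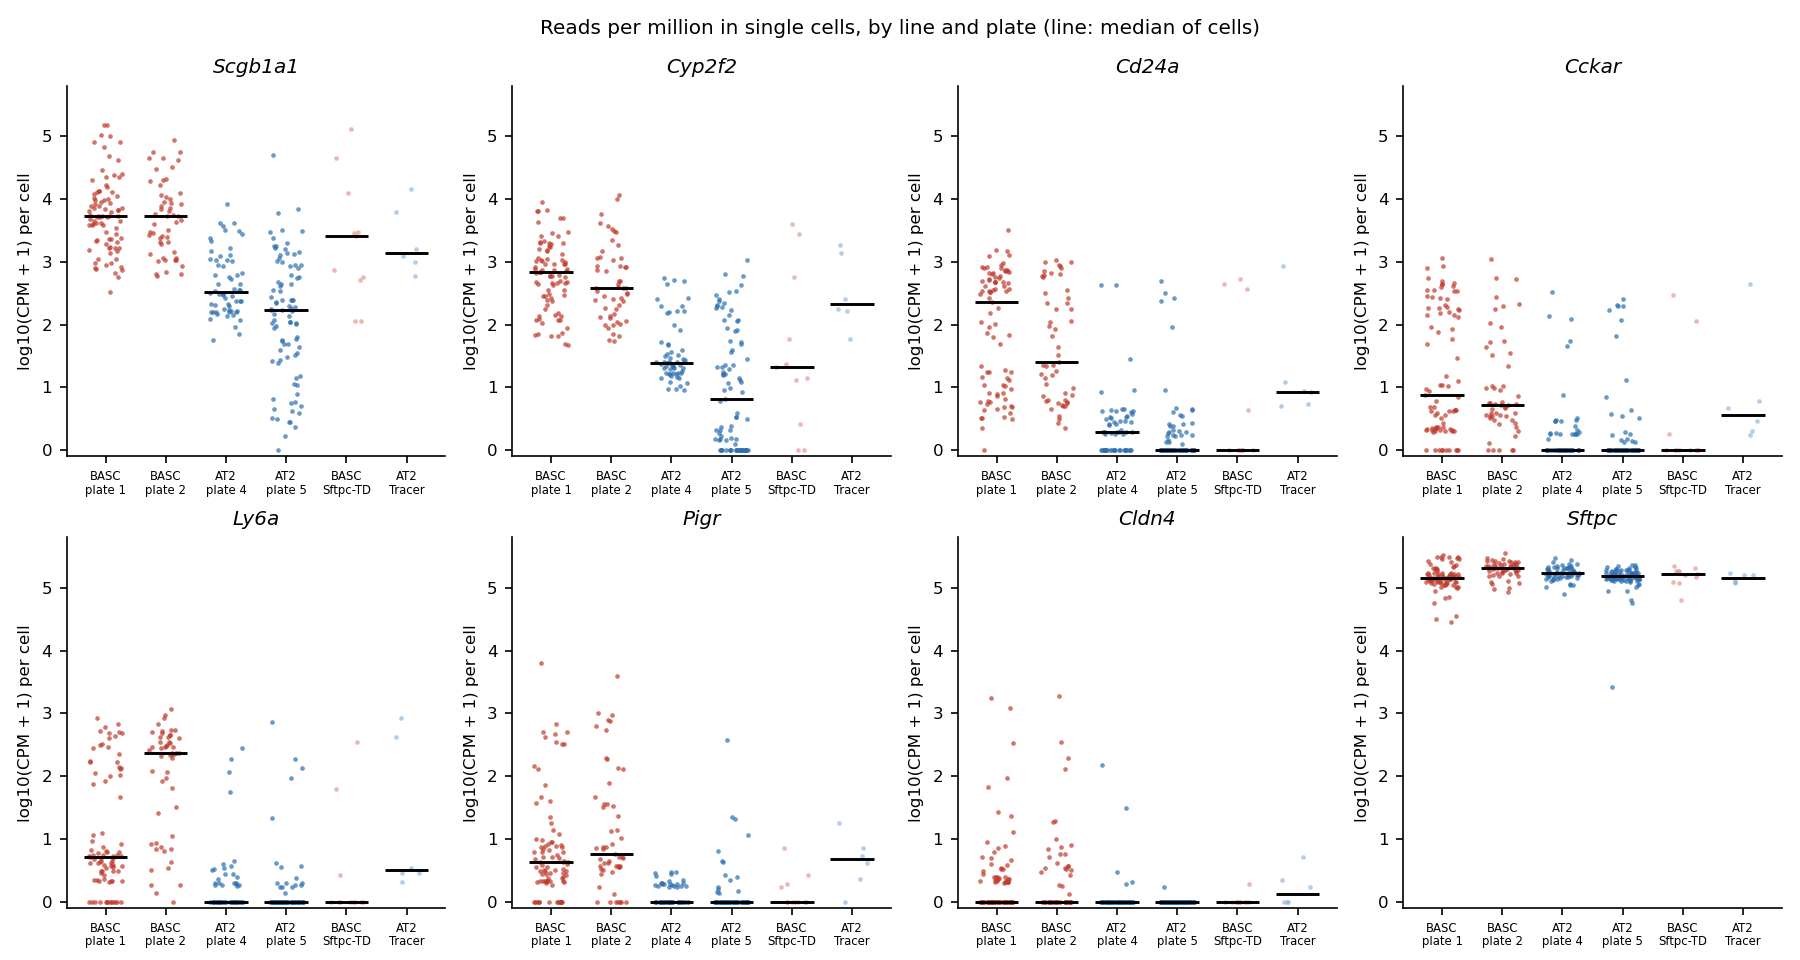
Level of 8 genes in single cells in CPM, on a log10 axis after adding 1, for BASCs on plates 1 and 2, AT2 cells on plates 4 and 5, and the 11 BASCs of Sftpc-TD and 6 AT2 cells of BASCs-Tracer; each point is a cell and the black line is the median. Scgb1a1 and Cyp2f2 are shifted in nearly all BASCs, and Cd24a, Cckar and Ly6a are spread widely among BASCs. Pigr and Cldn4 are high in a minority, and Sftpc lies alike in both groups.

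Scgb3a2, another secretoglobin of the airway, was higher in BASCs and also in other cell types on their plates. It stood at 151 CPM in BASCs and 9.82 CPM in AT2 cells (log2 ratio 3.81), and the BASC was higher in 95.8% of pairs, the largest such share among the genes named. On plate 2, however, the median BASC had 99.4 CPM. The median ciliated cell of Scgb1a1-TD, of which that plate held 5, had 143.9 CPM. A ciliated cell of BASCs-Tracer on that plate is not included. The tracer AT2 cells, which shared both the line and plates 1 and 2 with the BASCs, reached 100 CPM at the median. BASCs of Sftpc-TD had 13.8 CPM and AT2 cells on plate 4 had 14.7 CPM. Between BASCs-Tracer and Sftpc-TD, line and plate cannot be told apart in these values. Within Scgb1a1-TD, the median ciliated cell had 143.9 CPM on plate 2 (range 85.35 to 217) and 23.9 CPM on plate 4 (2.04 to 231.5). The median BASC of Scgb1a1-TD on plate 4 had 15.003 CPM, close to the AT2 cells of that plate. The median of ciliated cells thus differed between plates within the same line, with overlapping ranges, and the cause was not tested. Summed over cells, Scgb3a2 stood at 222 CPM in the BASCs of plate 2 and 127.5 CPM in the 5 Scgb1a1-TD ciliated cells of that plate. The highest cell had 2906 CPM among these BASCs and 217 CPM among these ciliated cells. Cells of other types on the plates with BASCs thus carried Scgb3a2 reads at medians as high as those of BASCs.

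The same 5 ciliated cells had a median of 2543 CPM of Scgb1a1 and 2693 CPM of Cyp2f2, where the BASCs of plate 2 had 5455 CPM of Scgb1a1 and 377 CPM of Cyp2f2. On plate 4, 6 ciliated cells of Scgb1a1-TD had a median of 249 CPM of Scgb1a1 and 1963 CPM of Cyp2f2. The AT2 cells of that plate had 332 CPM and 23.5 CPM of these genes. Cyp2f2 was thus high in ciliated cells on both plates, while Scgb1a1 in ciliated cells was higher on plate 2 than on plate 4. These ciliated cells had a median of 262574 reads on plate 2 and 1043180 reads on plate 4. Plates 1 and 2 held 7 and 30 club cells, plate 4 held 15, and plate 5 held 0. Whether reads passed between wells was not tested, and how much of the Scgb3a2 level is background cannot be told from these values.

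Among 24 club cell marker genes, 18 were measured, 10 were at least 2-fold higher in BASCs and 0 at least 2-fold lower, with a median log2 ratio of 1.25 against 0.01 over all genes. Hp, which encodes the haemoglobin-binding plasma protein haptoglobin, was higher in an even manner, with 1739 CPM in BASCs and 731 CPM in AT2 cells (log2 ratio 1.25) and medians per cell of 1397 CPM in BASCs and 649 CPM in AT2 cells. It stood at 1331 CPM in the BASCs of Sftpc-TD, 808 CPM in AT2 cells of BASCs-Tracer and 1810 CPM in the plate 4 BASCs of Scgb1a1-TD, so each set of BASCs lay above each set of AT2 cells. Cbr2, a carbonyl reductase of airway and alveolar cells, went the other way, with 9465 CPM in BASCs and 13919 CPM in AT2 cells, and medians per cell of 7240 CPM in BASCs and 13557 CPM in AT2 cells. The summed club list varied widely among BASCs, with a median of 17665 CPM per cell (4048 to 187508), and had a median of 17359 CPM (6281 to 73418) in AT2 cells, where Cbr2 supplied most of it.

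Cd24a, Ly6a and Cckar varied widely from cell to cell, with intermediate levels between low and high cells. Cd24a encodes a small glycosylated surface protein used to sort lung epithelial progenitors, Ly6a encodes the surface protein Sca-1, and Cckar encodes a receptor for the gut hormone cholecystokinin. To set shares of cells side by side, each cell was thinned to 100000 reads, which left 84 and 49 BASCs on plates 1 and 2 and 60 and 88 AT2 cells on plates 4 and 5, and a gene counted as present at 10 reads. Shares below refer to these cells. Cd24a was then present in 65 BASCs (48.9%, 95% Clopper-Pearson interval 40.1 to 57.7) and 7 AT2 cells (4.73%, 1.92 to 9.50). Ly6a was present in 53 BASCs (39.8%, 31.5 to 48.7) and 6 AT2 cells (4.05%, 1.502 to 8.61). Cckar was present in 37 BASCs (27.8%, 20.4 to 36.3) and 8 AT2 cells (5.41%, 2.36 to 10.4).

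The summed levels gave the same order. Cd24a stood at 290 CPM in BASCs and 18.3 CPM in AT2 cells (log2 ratio 3.91), Ly6a at 151 CPM in BASCs and 13.9 CPM in AT2 cells (3.35), and Cckar at 93.3 CPM in BASCs and 11.7 CPM in AT2 cells (2.89). A few AT2 cells held most of the Cd24a reads of their group: 10 cells supplied 96.9% of them, and the highest had 501 CPM. The share was uneven between the BASC plates. Cd24a was present in 46 of 84 BASCs on plate 1 and 19 of 49 on plate 2, whereas Ly6a was present in 23 of 84 BASCs on plate 1 and 30 of 49 on plate 2. Cckar was present in 29 of 84 BASCs on plate 1 and 8 of 49 on plate 2.

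On plate 4, where another line's BASCs and the AT2 cells lay side by side, 6 of 10 BASCs of Scgb1a1-TD and 2 of 60 AT2 cells had Cd24a, and 5 of 10 BASCs and 3 of 60 AT2 cells had Ly6a. Of the 11 BASCs of Sftpc-TD, 3 had Cd24a, 2 had Ly6a and 2 had Cckar, and of the 6 AT2 cells of BASCs-Tracer, 1, 2 and 1 cells had them. In Scgb1a1-TD, 24 of 24 ciliated cells had Cd24a, 19 had Ly6a and 9 had Cckar, at a median depth of 990495 reads. Of 94 club cells of that line, 82 had Cd24a, 67 had Ly6a and 82 had Cckar. Ly6a reads may be shared with its near-identical neighbours of the Ly6 family.

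**Figure D2:**
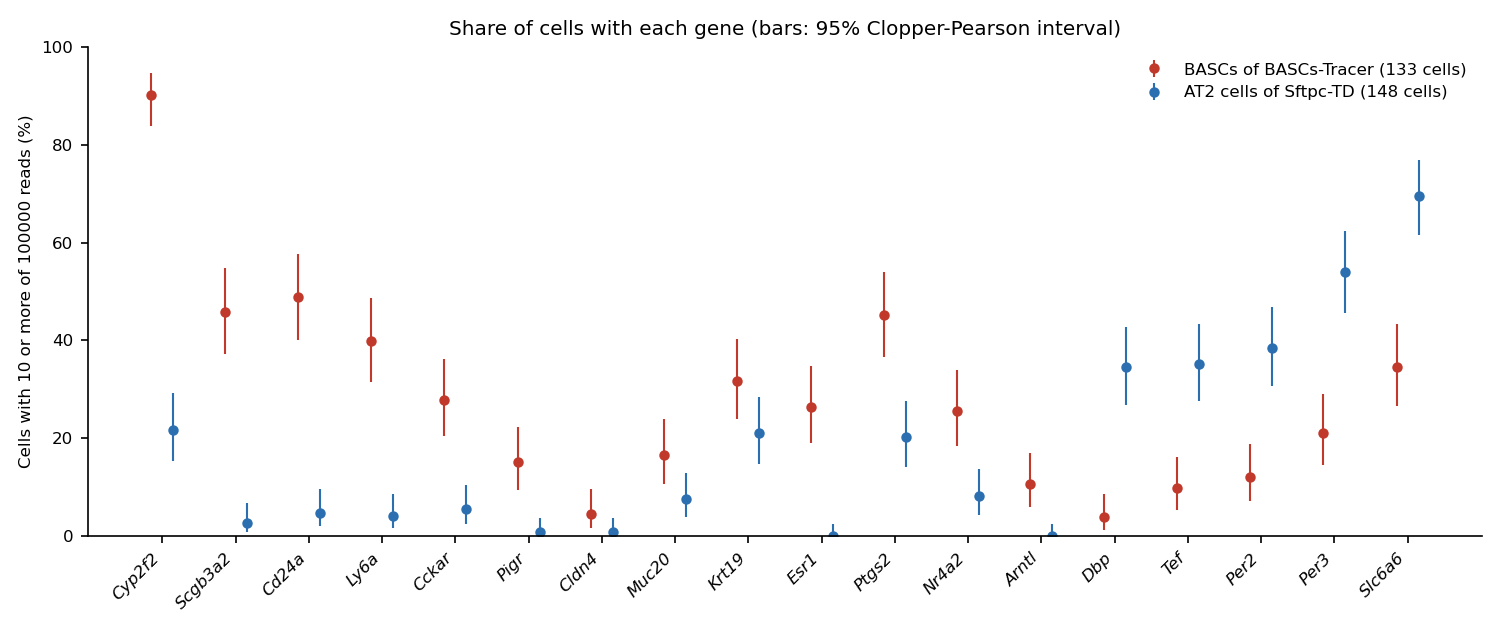
Share of cells with 10 or more of 100000 thinned reads of each gene, in BASCs of BASCs-Tracer and AT2 cells of Sftpc-TD, with 95% Clopper-Pearson intervals that cover counting error only. Cyp2f2, Scgb3a2, Cd24a, Ly6a and Cckar stand higher in BASCs, and Dbp, Tef, Per2, Per3 and Slc6a6 stand higher in AT2 cells.

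Among the genes described here, Pigr and Cldn4 had the largest log2 ratios of summed reads after Esr1, and both came from a minority of BASCs. Pigr encodes the receptor that carries polymeric immunoglobulins across mucosal epithelia into the lumen. It stood at 180 CPM in BASCs (177 to 182) and 1.91 CPM in AT2 cells (1.72 to 2.12), a log2 ratio of 5.96 with plate pairings of 5.18 to 7.53. Single BASCs ranged from 0 to 6226 CPM with a median of 3.80, and single AT2 cells from 0 to 381 CPM with a median of 0. Pigr was present in 20 BASCs (15.04%, 9.43 to 22.3) and 1 AT2 cell (0.676%, 0.0171 to 3.71), and 10 BASCs supplied 86.3% of its BASC reads.

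Cldn4 encodes claudin-4, a sealing component of tight junctions. It stood at 81.3 CPM in BASCs and 0.687 CPM in AT2 cells (log2 ratio 5.61, plate pairings 3.68 to 7.26), yet the median BASC and the median AT2 cell both had 0 CPM. It was present in 6 BASCs (4.51%, 1.67 to 9.56) and 1 AT2 cell (0.676%, 0.0171 to 3.71), intervals that overlap. A group of 10 BASCs supplied 98.8% of its BASC reads, and the highest had 1905 CPM. Neither gene was present in any of the 11 BASCs of Sftpc-TD or the 6 AT2 cells of BASCs-Tracer, counts which allow shares of up to 27.3% and 50%. Pigr was present in 5 of 24 ciliated cells (20.8%) and 74 of 94 club cells of Scgb1a1-TD (78.7%), and Cldn4 in 6 of those ciliated cells (25%) and 24 of those club cells (25.5%). The Pigr interval of the ciliated cells, 7.13 to 42.2%, takes in the share of BASCs. Pigr was present in 9 of 49 BASCs and 0 of 5 Scgb1a1-TD ciliated cells on plate 2, and in 0 of 6 such ciliated cells on plate 4.

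The 250 bases upstream of both genes, from RefSeq on GRCm38.p6, are given because these genes had the largest ratios described apart from Esr1. Capitals mark the E-box CACGTG in Pigr (chr1:130826434-130826683, plus strand) and the AP-1 site TGACTCA in Cldn4 (chr5:134946935-134947184, minus strand).
Pigr: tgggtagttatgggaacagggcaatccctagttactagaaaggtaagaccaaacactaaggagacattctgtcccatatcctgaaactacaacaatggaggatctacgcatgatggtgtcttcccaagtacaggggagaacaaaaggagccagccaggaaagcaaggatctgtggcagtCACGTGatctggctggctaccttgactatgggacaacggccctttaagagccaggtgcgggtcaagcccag
Cldn4: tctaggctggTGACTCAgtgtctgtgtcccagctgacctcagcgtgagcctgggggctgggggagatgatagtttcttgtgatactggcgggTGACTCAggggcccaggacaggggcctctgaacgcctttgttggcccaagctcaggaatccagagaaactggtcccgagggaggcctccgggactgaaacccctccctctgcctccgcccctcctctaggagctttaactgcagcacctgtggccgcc
Both strands were searched. The E-box begins 71 bases before the Pigr start and the AP-1 letters begin 240 and 158 bases before the Cldn4 start. In windows of this length, 6.02% of 32851 RefSeq promoters hold CACGTG and 4.46% hold TGACTCA, so a match is a description and not a site of binding.

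Other mucosal and junction genes differed less. Of 10 measured genes for mucosal transport, mucins and secreted defence, 4 were at least 2-fold higher in BASCs (Pigr, Muc4, Muc5b and Muc20) and 0 lower, with a median log2 ratio of 0.70. Muc4, a membrane-bound mucin, was present in 59 BASCs (44.4%) and 37 AT2 cells (25%), and stood at 180 CPM in BASCs and 61.97 CPM in AT2 cells. It ran the other way with the small sets, at 17.98 CPM in the Sftpc-TD BASCs and 208 CPM in tracer AT2 cells, while BASCs of Scgb1a1-TD on plate 4 had 130.95 CPM and the AT2 cells of that plate 78.2 CPM. Muc20, also membrane-bound, was present in 22 BASCs (16.5%) and 11 AT2 cells (7.43%). Muc1, the membrane mucin of alveolar cells, was similar at 1259 CPM in BASCs and 1597 CPM in AT2 cells.

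Of 19 measured tight junction and adhesion genes, 2 were at least 2-fold higher in BASCs and 1 lower, with a median of 0.083. Those higher were Cldn4 and the junction plaque gene Cgn, which had a log2 ratio of 1.22. F11r, which encodes the junctional adhesion molecule JAM-A, was lower, at 165 CPM in BASCs and 363 CPM in AT2 cells (log2 ratio -1.13, plate pairings -1.60 to -0.53). The keratin genes Krt8 and Krt18, which form the filaments of simple epithelia, stood at 595 and 640 CPM in BASCs and at 329 and 353 CPM in AT2 cells, short of 2-fold. Krt19 was present in 42 BASCs (31.6%) and 31 AT2 cells (20.9%).

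Esr1, the oestrogen receptor gene, had 96.9 CPM in BASCs and 0.0156 CPM in AT2 cells, where it rested on 3 reads. It was present in 35 BASCs (26.3%, 19.1 to 34.7) and 0 AT2 cells, a count that allows a share of up to 2.03%. Esr1 was present in 0 of 11 BASCs of Sftpc-TD and 0 of 6 AT2 cells of BASCs-Tracer. Among club cells, it was present in 8 of 13 of BASCs-Tracer and 48 of 94 of Scgb1a1-TD, so it was not particular to BASCs. The CreER and DreER transgenes carry an oestrogen receptor domain, and reads of a transgene cannot be told apart from those of the gene here. Sftpc-DreER is carried by both lines of the main pair, and the Scgb1a1-driven CreER by BASCs-Tracer but not by Sftpc-TD. The source of the Esr1 reads was not tested.

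Within the BASCs of BASCs-Tracer, some of these genes varied together and others did not. Across the thinned cells, Scgb1a1 and Cyp2f2 had a Spearman rho of 0.73, with 0.73 on plate 1 and 0.71 on plate 2. Scgb1a1 and Cd24a had a rho of 0.67 (0.57 and 0.81 by plate), and Scgb1a1 and Cckar 0.55 (0.55 and 0.50). BASCs rich in Scgb1a1 thus tended to be those with Cyp2f2, Cd24a and Cckar. Cckar was present in 29 of the 65 BASCs with Cd24a (44.6%) and in 8 of the 68 without it (11.8%).

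Ly6a and Pigr stood apart from that group. The rho with Scgb1a1 was -0.03 for Ly6a and 0.09 for Pigr, and Ly6a was present in 22 of the 65 BASCs with Cd24a and 31 of the 68 without it. Muc20 was present in 7 of those 20 BASCs (35%) and in 15 of the BASCs without Pigr (13.3%). Counting Cd24a, Ly6a, Cckar, Pigr and Cldn4 together, 23 BASCs (17.3%) and 87.2% of AT2 cells had 0 of the 5. In turn, 58 BASCs and 15 AT2 cells had 1, 15 BASCs and 0 AT2 cells had 3, and no BASC or AT2 cell had all 5. The 5 genes are ones that were higher in these same BASCs, so a split between the groups follows from their choice. In Scgb1a1-TD, 0 of 94 club cells and 0 of 24 ciliated cells lacked all 5, so having some of them is not particular to BASCs. Cells of a plate are not independent of that plate, and the values describe these cells only.

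**Figure D3:**
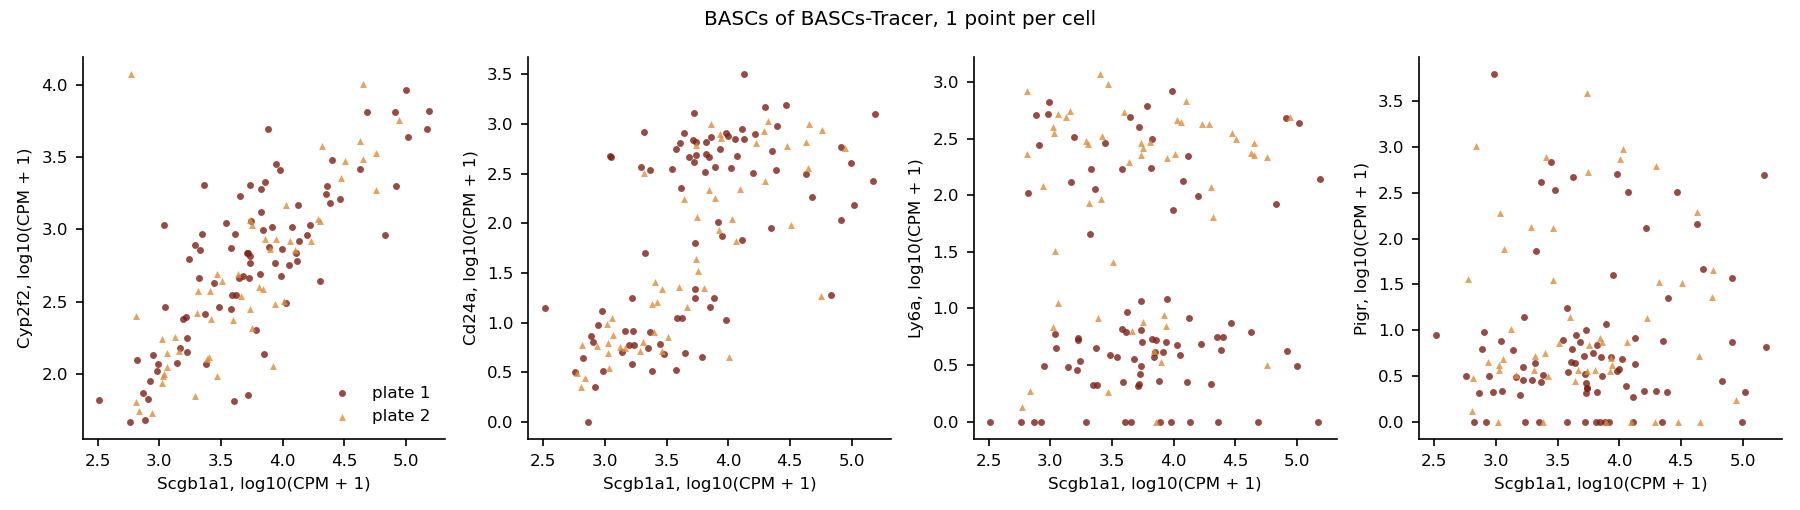
Each point is a BASC of BASCs-Tracer, with Scgb1a1 on the x axis and Cyp2f2, Cd24a, Ly6a or Pigr on the y axis, both as log10 of CPM plus 1, and with the plate as marker. Cyp2f2 and Cd24a are higher where Scgb1a1 is higher (rho 0.73 and 0.67), and Ly6a and Pigr are spread over its whole range (rho -0.03 and 0.09).

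The AT2 programme was close to equal in both groups. Sftpc, which encodes surfactant protein C and drives the Dre of both lines, stood at 174513 CPM in BASCs and 160638 CPM in AT2 cells, a log2 ratio of 0.12 that lay on both sides of 0 over the plate pairings (-0.09 to 0.32). Of 20 AT2 marker genes, all 20 were measured and 0 were 2-fold apart, with log2 ratios from -0.88 to 0.58 and a median of -0.17. Lyz2, a lysozyme of AT2 cells and phagocytes, stood at 86640 CPM in BASCs and 74599 CPM in AT2 cells.

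Smaller shifts within that list ran across cells. Sftpb, which encodes surfactant protein B, stood at 11024 CPM in BASCs and 18563 CPM in AT2 cells (log2 ratio -0.75), and the AT2 cell was higher in 77.96% of pairs. Etv5, a transcription factor that sustains AT2 identity in mice, stood at 510 CPM in BASCs and 936 CPM in AT2 cells (-0.88, plate pairings -1.25 to -0.54). Slc34a2, the apical phosphate transporter, stood at 9086 CPM in BASCs and 11635 CPM in AT2 cells (-0.36). Cxcl15, the secreted chemokine lungkine, went the other way, with 6922 CPM in BASCs and 4636 CPM in AT2 cells (0.58), and the BASC was higher in 75.3% of pairs. Cxcl15 levels in the small sets were 6607 CPM (BASCs of Sftpc-TD) and 6820 CPM (tracer AT2 cells), so that only the large AT2 group was low.

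AT1 markers lay mostly below the AT2 cells' level in BASCs, few of them past 2-fold. Of 12 measured AT1 markers, 0 were at least 2-fold higher in BASCs and 2 at least 2-fold lower, 10 had a ratio below 0, and the median log2 ratio was -0.63. Those 2, Cav1 and Rtkn2, drew 98.8% and 99.6% of their AT2 reads from 10 cells. Cav1, the coat protein of caveolae, was present in 11 BASCs (8.27%) and 10 AT2 cells (6.76%). Aqp5, a water channel of alveolar epithelium, stood at 294 CPM in BASCs and 508 CPM in AT2 cells, and Ager, the receptor abundant in AT1 cells, at 1901 CPM in BASCs and 2000 CPM in AT2 cells.

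**Figure D4:**
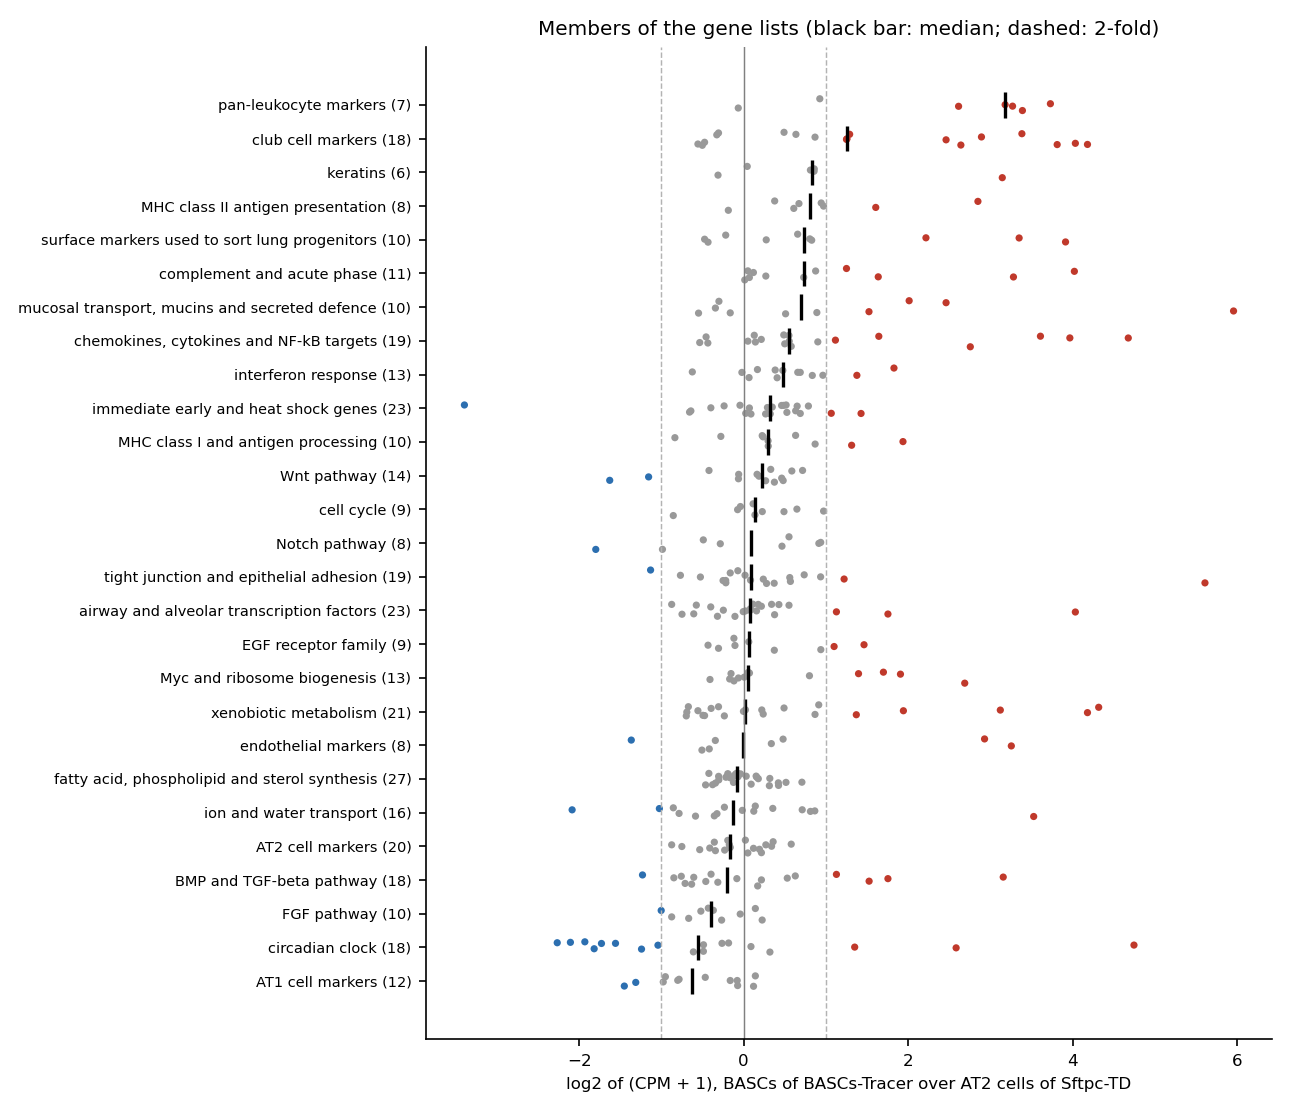
Log2 ratio of BASCs of BASCs-Tracer over AT2 cells of Sftpc-TD for each measured member of the lists with 6 or more measured genes, with the number measured in brackets; black bars are medians and dashed lines mark 2-fold. AT2 markers and lipid synthesis genes lie within 2-fold, club cell markers lie to the right with a median of 1.25, and circadian clock genes reach both sides.

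Lipid synthesis, the supply line of surfactant, was level as well: 0 of 27 measured fatty acid, phospholipid and sterol synthesis genes were 2-fold apart, with a median of -0.08. Of 9 measured cell cycle genes, 0 were 2-fold apart, with a median of 0.14.

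Several genes were lower in BASCs across most cells. Rgcc, which encodes a regulator of the cell cycle induced by complement, stood at 486 CPM in BASCs and 1172 CPM in AT2 cells (log2 ratio -1.27, plate pairings -1.42 to -1.04), and the AT2 cell was higher in 80.7% of pairs. Apoe, the lipid carrier apolipoprotein E, stood at 482 CPM in BASCs and 1035 CPM in AT2 cells (-1.10), and was present in 76 BASCs (57.1%) and 93.2% of AT2 cells. Slc6a6, the taurine transporter, was present in 46 BASCs (34.6%) and 69.6% of AT2 cells. Ctsh, a lysosomal protease that processes surfactant proteins, stood at 1083 CPM in BASCs and 1723 CPM in AT2 cells (-0.67).

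The small sets placed these genes in different ways. Rgcc stood at 714 CPM over the BASCs of Sftpc-TD and 456 CPM over the tracer AT2 cells, so the BASCs of Sftpc-TD lay between the main groups and the tracer AT2 cells lay near the BASCs of their line. Apoe stood at 862 CPM over the BASCs of Sftpc-TD and 536 CPM over the tracer AT2 cells. On plate 4, BASCs of Scgb1a1-TD had 117.5 CPM of Rgcc and 231 CPM of Apoe, against 1169 CPM of Rgcc and 929 CPM of Apoe in the AT2 cells of that plate. BASCs thus lay below AT2 cells for both genes on plate 4 and within Sftpc-TD, but not for Rgcc within BASCs-Tracer. Slc6a6 stood at 38.4 CPM in the plate 4 BASCs of Scgb1a1-TD and 232 CPM in the AT2 cells of that plate, and at 193 CPM in the Sftpc-TD BASCs, against 182 CPM in tracer AT2 cells. Ctsh stood at 871 CPM in the plate 4 BASCs of Scgb1a1-TD and 1587 CPM in the AT2 cells of that plate, and at 955 CPM in the Sftpc-TD BASCs, against 951 CPM in tracer AT2 cells.

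The circadian clock genes formed the group with the most members lower in BASCs. The clock is a feedback loop in which Arntl (BMAL1) and its partners, Clock or Npas2, switch on the Per genes, the Nr1d repressors and the output factors Dbp and Tef, so that Arntl and these outputs peak at opposite times of day. Of 18 measured clock genes, 8 were at least 2-fold lower in BASCs and 3 at least 2-fold higher, with a median log2 ratio of -0.55. The 3 were Arntl, Npas2 and Nfil3, a repressor that competes with Dbp.

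Dbp stood at 16.5 CPM in BASCs (15.7 to 17.2) and 83.02 CPM in AT2 cells (81.7 to 84.3), a log2 ratio of -2.27 with plate pairings of -3.42 to -0.69. Single BASCs ranged from 0 to 335 CPM with a median of 0, and single AT2 cells from 0 to 419 CPM with a median of 42.1. Dbp was present in 5 BASCs (3.76%, 1.23 to 8.56) and 51 AT2 cells (34.5%, 26.8 to 42.7). The shares of AT2 cells were 12 of 60 on plate 4 and 39 of 88 on plate 5.

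The clock genes Per3, Per2 and Tef ran alike. Per3, a period gene, was present in 28 BASCs (21.1%, 14.5 to 28.97) and 80 AT2 cells (54.1%, 45.7 to 62.3), Per2 in 16 BASCs (12.03%) and 57 AT2 cells (38.5%), and Tef in 13 BASCs (9.77%) and 52 AT2 cells (35.1%). Their log2 ratios were -1.56, -1.73 and -1.82. Nr1d2 was lower as well (-1.04), while its paralogue Nr1d1 stood at 172 CPM in BASCs and 161 CPM in AT2 cells and ran from -0.73 to 0.44 over the plate pairings.

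Arntl stood at 32.7 CPM in BASCs and 0.255 CPM in AT2 cells, and was present in 14 BASCs (10.5%, 5.88 to 17.03) and 0 AT2 cells, a count that allows up to 2.03%. Plate 1 supplied most of it, with 12 of 84 BASCs against 2 of 49 on plate 2. Npas2 was present in 4 BASCs, each on plate 1, and without plate 1 its ratio turned to -0.72. On plate 4, 3 of 10 BASCs of Scgb1a1-TD and 0 of 60 AT2 cells had Arntl.

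The small sets gave mixed levels. Dbp stood at 34.8 CPM in the BASCs of Sftpc-TD and 0.200 CPM in the tracer AT2 cells, and Per3 at 64.04 CPM in those BASCs and 1.80 CPM in those AT2 cells, so AT2 cells of the tracer line were low in both genes. Tef stood at 135.1 CPM in the BASCs of Sftpc-TD and 69.7 CPM in the tracer AT2 cells, and Per2 at 87.6 CPM in those BASCs and 112.1 CPM in those AT2 cells. Hours of collection are not given in the labels, and time of day cannot be told apart from line.

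**Figure D5:**
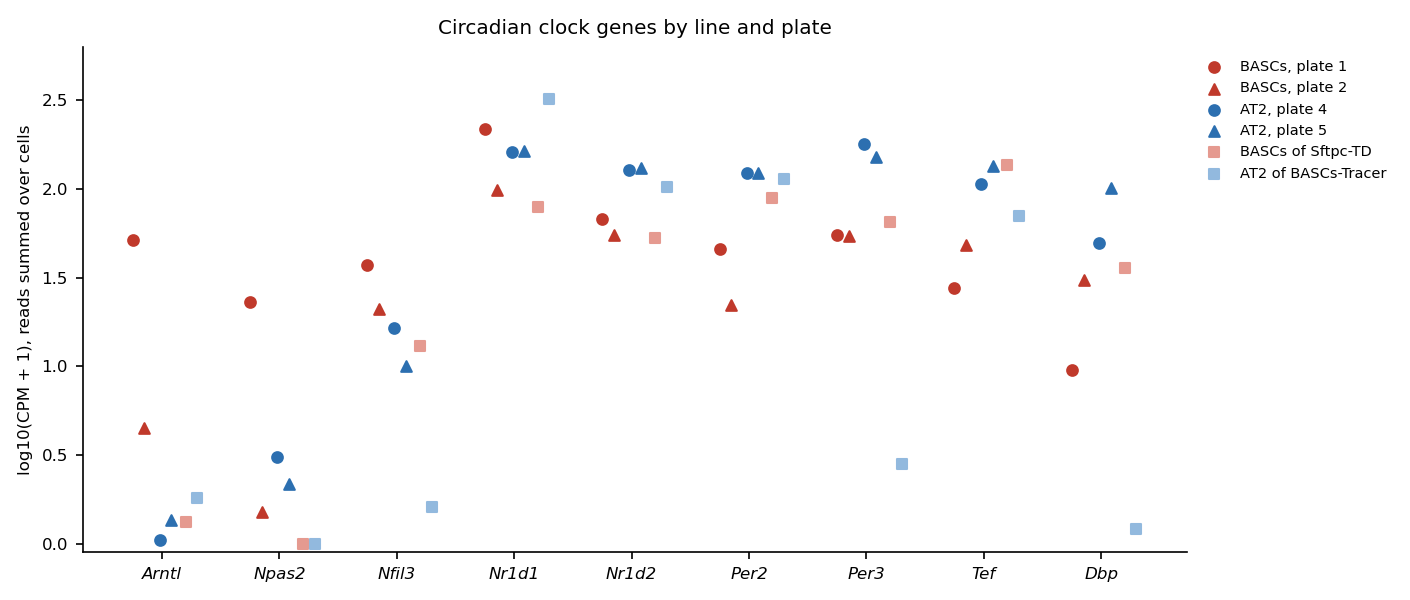
Level of 9 clock genes in reads summed over cells, as log10 of CPM plus 1, for BASCs on plates 1 and 2, AT2 cells on plates 4 and 5, and both small sets. Arntl lies higher on the BASC plates, Per2, Per3, Tef and Dbp lie lower there than on the AT2 plates, and AT2 cells of BASCs-Tracer have Dbp and Per3 near 0.

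The upstream 250 bases of Per3 (chr4:151044666-151044915, minus strand) and Tef (chr15:81802423-81802672, plus strand), from RefSeq on GRCm38.p6, are given as clock outputs that were lower in BASCs and hold a clock motif. Capitals mark the D-box TTATGTAA, to which Dbp, Tef and Nfil3 proteins bind, in Per3 and the E-box CACGTG, to which BMAL1 binds, in Tef.
Per3: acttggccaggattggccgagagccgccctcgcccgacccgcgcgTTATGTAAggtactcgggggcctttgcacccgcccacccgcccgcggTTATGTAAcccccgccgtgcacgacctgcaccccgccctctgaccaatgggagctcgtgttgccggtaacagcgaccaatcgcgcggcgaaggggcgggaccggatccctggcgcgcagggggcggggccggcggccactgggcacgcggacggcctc
Tef: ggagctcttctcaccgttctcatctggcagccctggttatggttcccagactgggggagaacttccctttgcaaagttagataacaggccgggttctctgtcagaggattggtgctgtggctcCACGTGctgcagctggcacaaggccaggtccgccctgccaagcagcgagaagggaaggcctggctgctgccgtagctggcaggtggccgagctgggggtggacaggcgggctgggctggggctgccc
The D-box letters begin 205 and 158 bases before the Per3 start, and 0.819% of RefSeq promoters hold them on either strand. Of the 8 clock genes called lower, 7 had a promoter entry, and 4 of these (Bhlhe41, Ciart, Cipc and Tef) held CACGTG. The 3 called higher had entries and 0 held either motif, which says only that these letters are not in this window.

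Genes induced within minutes of stimulation were mostly within 2-fold. Of 23 measured immediate early and heat shock genes, 2 were at least 2-fold higher in BASCs, Fosb and Ier5, and 1 lower, with a median log2 ratio of 0.32. Fosb, an AP-1 subunit, stood at 927 CPM in BASCs and 443 CPM in AT2 cells, and the BASC was higher in 77.1% of pairs. Hspa1b, a heat shock protein gene with a near-identical neighbour, was present in 0 BASCs, which allows up to 2.26%, and in 18 AT2 cells (12.2%). Ptgs2, which encodes the inducible prostaglandin synthase COX-2, was present in 60 BASCs (45.1%) and 30 AT2 cells (20.3%), and the nuclear receptor gene Nr4a2 in 34 BASCs (25.6%) and 12 AT2 cells (8.11%). AT2 cells of BASCs-Tracer had 1487 CPM of Fosb and 393 CPM of Ptgs2, above the BASCs of that line, whose levels were 927 and 261 CPM.

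Immune genes differed unevenly. Of 8 measured MHC class II genes, 2 were at least 2-fold higher in BASCs, Ciita and Ctss, with a median of 0.81. H2-Aa, a class II chain, stood at 788 CPM in BASCs and 494 CPM in AT2 cells, but was present in 94 BASCs (70.7%) and 77.7% of AT2 cells. Cd74, the class II invariant chain, stood at 3277 CPM in BASCs and 2523 CPM in AT2 cells, and at 1213 CPM in the median BASC of plate 1 against 3236 CPM on plate 2. H2-D1, a class I chain, was lower, at 1080 CPM in BASCs and 1929 CPM in AT2 cells (log2 ratio -0.84).

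Of 19 measured chemokine, cytokine and NF-kB target genes, 6 were at least 2-fold higher in BASCs and 0 lower, with a median of 0.55. In each of the 6, 10 cells supplied between 70.2% and 99.7% of the BASC reads. Pan-leukocyte markers were higher beside them: 7 of 10 were measured, 5 were at least 2-fold higher in BASCs (Ptprc, Tyrobp, Fcer1g, Cd52 and Cd53), and the summed level of the list ranged from 0 to 4988 CPM per BASC (median 37.6) and from 0 to 859 CPM per AT2 cell (median 41.01). Without Lcp1, which stood at 125.97 CPM in BASCs and 131.9 CPM in AT2 cells, 9 BASCs and 1 AT2 cell had 50 CPM or more of that list. The part of these cells in the immune gene levels was not tested.

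The pair of small sets shares no cell with the main comparison and reverses line and type, so it bears on the whole difference. In BASCs of Sftpc-TD against AT2 cells of BASCs-Tracer, 565 of the 1015 genes called higher were measured, of which 242 were 2-fold higher (42.8%) and 222 were 2-fold lower (39.3%). Of all 8062 genes measured in both comparisons, 33.3% were 2-fold higher and 31.4% 2-fold lower. Of the 928 genes called lower, 572 were measured, 211 were 2-fold lower (36.9%) and 253 were 2-fold higher (44.2%). The genes called in the main pair were thus 2-fold apart more often than all genes, but on both sides, with 11 BASCs and 6 AT2 cells behind those values.

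Some of the named genes kept their direction in each set of BASCs against AT2 cells. The median log2 ratio over all genes was itself 0.68 within BASCs-Tracer, -0.50 within Sftpc-TD and -0.38 on plate 4. It was 0.01 for BASCs of Sftpc-TD over AT2 cells of BASCs-Tracer. Ratios near these medians, such as Etv5 on plate 4, differ little from all genes. Scgb1a1 had log2 ratios of 1.83 within BASCs-Tracer, 2.72 within Sftpc-TD, 1.17 for BASCs of Sftpc-TD over AT2 cells of BASCs-Tracer and 2.09 on plate 4. Hp had 1.11, 0.86, 0.72 and 1.36. Etv5 was lower each time, at -0.50, -0.89, -0.52 and -0.51, and so were Nkd1, a Wnt feedback inhibitor (-1.70, -0.96, -1.50 and -1.39), and Aqp5 (-1.06, -1.08, -1.35 and -1.74). Fgf1, a growth factor ligand, was lower each time too (-0.95, -2.46, -2.41 and -1.07). Pigr and Cldn4 were higher within BASCs-Tracer (4.96 and 5.23) and on plate 4 (6.06 and 3.82), and not in BASCs of Sftpc-TD, whose levels were 0.477 and 0.0796 CPM. Comparisons that use the same BASCs or AT2 cells share those cells and are set side by side only.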

How the data were processed

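Gene expression was measured in single sorted lung cells of 3 mouse reporter lines by reverse transcription, PCR amplification of the cDNA and Nextera XT libraries, per the labels' protocols. The submitters' processing notes list HISAT2, HTSeq and the GRCm38 build, with no versions in the sources used here. The values are counts of reads, unscaled, in the table that the authors deposited. Column names, shifted by 1 place, were matched to the labels, with 0 columns left over. Strand use in counting is not stated, so overlapping and near-identical genes may share reads.

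Line and sub-type came from the labels, and the basis of the sub-type calls is not stated there. Symbols came from GENCODE M21. Genes were called past 2-fold on summed CPM. No doublet caller was run and no cell was removed, except, for shares, 5 BASCs and 1 AT2 cell under 100000 reads. Named genes were the 15 per direction by ratio and by pair share (50 CPM or more, a read in 25% of cells, the same direction in 4 plate pairings), the 4 highest and 3 most different members of each of 33 lists, and 5 fixed markers. Some genes that met it are left out, and 1 member of the junction list is not reported here. Muc4 and Nfil3 were chosen after their values were seen. The members and lists were chosen with earlier results of these data known. Intervals are at the 95% level. Steps were tested on simulated data. Python 3.11.15, NumPy 2.4.6, pandas 2.3.3, SciPy 1.17.1 and matplotlib 3.10.9 were used.

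Other settings tried were median-of-ratios scaling, the mean over cells, other totals, 10 CPM added and no filter on low genes. Cells were also limited to those with 100000 reads and 2000 genes, or to those under 50 CPM of the leukocyte list. Each plate was left out in turn, cells were thinned, and the small sets took the place of either group. The plate 4 pair and shares by plate were added after the data were seen.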

Additional observations from a re-analysis of the deposited data

Results flagged for a closer look

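Among the named genes, Per3 differed in direction between the lines when BASCs were set against AT2 cells of their own line. It stood at 53.7 CPM in BASCs and 1.80 CPM in AT2 cells of BASCs-Tracer, whereas in Sftpc-TD it stood at 64.04 CPM in BASCs and 160 CPM in AT2 cells, with log2 ratios of 4.29 and -1.31 and a difference of 5.59. With 6 AT2 cells in BASCs-Tracer and 11 BASCs in Sftpc-TD, the difference was not tested.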

How the results depend on the processing

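Under the mean of per-cell CPM, median-of-ratios scaling, totals without mitochondrial and top genes, well-covered cells only and thinned cells, both counts of 2-fold genes stayed within 1.5 times and no named gene turned. With 10 CPM added, 197 genes were higher and 176 lower, and the club list median was 0.64; with no filter on low genes, 2027 and 1898 genes were called. Without cells holding 50 CPM or more of the leukocyte list, 1663 genes were lower. That list includes Lcp1, and its median per cell was 37.6 CPM in BASCs and 41.01 CPM in AT2 cells. The cut therefore also takes out cells of both groups for their Lcp1 reads. Leaving out 1 plate gave 1107 to 1621 genes higher and 926 to 2469 lower, with 2469 lower without plate 1, where Npas2 was -0.72, and 1621 higher without plate 5. With AT2 cells of BASCs-Tracer, 4143 genes were higher and 2154 lower, and Ly6a (-0.70), Muc4 (-0.21), Cav1 (5.12), Rtkn2 (2.86), Dbp (3.86), Per3 (4.29), Ptgs2 (-0.59), Fosb (-0.68) and Rgcc (0.091) reversed. The Dbp level of those AT2 cells lay below the 0.601 CPM that a count of 0 reads allows. Its ratio, here and with both groups exchanged, thus rests on almost no reads on that side. With BASCs of Sftpc-TD, 1687 were higher and 3584 lower, the club median was 0.047, and Pigr (-0.98), Muc4 (-1.73), Cldn4 (-0.64), Cgn (-0.69), Tef (0.13), Npas2 (-1.31), Ptgs2 (-0.10) and Fosb (-0.16) reversed. The Cldn4 level of those BASCs, 0.0796 CPM, likewise lay below the 0.239 CPM that a count of 0 reads allows. With both exchanged, 3260 were higher and 3023 lower, the club median was -0.17, and 24 of 53 named genes reversed: Cyp2f2 (-1.27), Scgb3a2 (-3.02), Cp (-0.998), Cd24a (-1.08), Ly6a (-3.33), Cckar (-0.997), Pigr (-1.97), Muc4 (-3.46), Muc5b (-0.99), Cldn4 (-1.03), F11r (0.22), Cav1 (5.53), Rtkn2 (0.11), Dbp (4.90), Tef (0.95), Per3 (4.54), Arntl (-0.45), Ptgs2 (-2.49), Fosb (-1.91), Nr4a2 (-0.68), Hspa1b (0.96), Rgcc (0.65), Apoe (0.69) and Slc6a6 (0.086). On plate 4, chosen after seeing the data, 1797 were higher and 3474 lower, the club median was 0.56, and Muc20 (-0.12), Nfil3 (-0.98) and Fosb (-0.14) reversed. The median of all genes moved by -0.26 without plate 1, 0.68 with AT2 cells of BASCs-Tracer, -0.50 with BASCs of Sftpc-TD and -0.38 on plate 4. The cause of these differences was not tested. No paired analysis was possible because the results come from no test.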

Other observations

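Further gene groups held a minority of members 2-fold apart between BASCs of BASCs-Tracer and AT2 cells of Sftpc-TD. Over all genes measured, 9.98% were higher and 9.12% lower. Of 13 measured Myc and ribosome biogenesis genes, 4 were at least 2-fold higher in BASCs (Myc, Odc1, Heatr1 and Polr1b) and 0 lower. The median log2 ratio was 0.05, and in each of the 4, 10 cells supplied between 62.2% and 98.8% of the BASC reads. Heatr1, a factor for ribosomal RNA processing, stood at 97.8 CPM in BASCs and 25.4 CPM in AT2 cells. Of 21 measured xenobiotic metabolism genes, 5 were higher (Cyp1a1, Cyp1b1, Cyp2f2, Gsto1 and Nqo1) and 0 lower, with a median of 0.02. Of 14 measured Wnt pathway genes, 0 were higher and 2 lower (Wnt3a and Nkd1). Of 10 FGF pathway genes 0 were higher and 1 lower (Fgf1), and of 8 Notch pathway genes 0 were higher and 1 lower (Maml2). In lists this small, the counts of lower genes lie near the share over all genes. Of 11 measured complement and acute phase genes, 4 were higher in BASCs (Cd55, Hp, Orm1 and Cp) and 0 lower, with a median of 0.73. Cp, the plasma copper carrier ceruloplasmin, stood at 29.5 CPM in BASCs and 0.879 CPM in AT2 cells.

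Limits of these data follow from the design. Each group came from 1 line with no animal named, so no spread between animals can be given. Line, plate and cell type cannot be told apart in the main pair, and the small sets of 6, 10 and 11 cells carry wide error. Full-length reads without molecular identifiers and few cells per gene make summed levels of rare genes depend on single cells.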
